A study of Mus musculus with 6 samples.

Results

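The genes described here are the core of the oxygen-sensing pathway: the 2 HIF alpha subunits Hif1a and Epas1, their partner Arnt, the prolyl hydroxylases Egln1, Egln2 and Egln3, the ubiquitin ligase subunit Vhl, and the asparaginyl hydroxylase Hif1an. They were taken by symbol, 8 of the 24391 genes in the count tables, and all 8 passed the filter on low counts. RNA was sequenced from cultured tumour cells of iBIP mice, which carry Tyr-CreERT2 (a tamoxifen-activated Cre driven by the tyrosinase promoter), Rosa26-rtta, TetO-BRAFV600E and floxed INK/ARF alleles, among others, on a mixed FVB and B6 background. All of the mice received doxycycline, and 4-OHT was applied to the ears to start auricular tumours, so both groups share the engineered alleles. The groups differ in Kmt2d: the cells labelled KMT2D WT (3 libraries) came from iBIP;KMT2D+/+ mice, and those labelled KMT2D KO (3 libraries) from iBIP;KMT2DL/L mice, in which both alleles are floxed. Kmt2d encodes a histone methyltransferase of enhancers. The labels give neither the age of the mice nor the number of tumours or cultures behind the libraries of a group. P-values therefore rest on the variation among these 3 libraries a group, possibly technical, and the Kmt2d genotype cannot be told apart from other differences between the tumours.

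Cells sense oxygen through the lifetime of the HIF alpha proteins. When oxygen is present, the Egln enzymes hydroxylate prolines of the alpha subunit, Vhl binds the hydroxylated protein, and the ligase that Vhl forms with elongins B and C, Cul2 and Rbx1 marks it for degradation. When oxygen is scarce, or when the cofactors 2-oxoglutarate, iron or ascorbate are lacking, the alpha subunit persists, pairs with Arnt and switches on genes of glycolysis, vessel growth and pH control. Egln1 and Egln3 are themselves HIF targets, which makes the system a feedback loop. Because the main control acts on protein, the RNA levels below do not give the amount of HIF protein or its hydroxylation.

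Total counts were 43168605 to 59360068 in the wild-type libraries and 55594979 to 79718782 in KMT2D KO. Counts of the 8 genes ranged from 590 to 64589 per library, so the counting error was at most 4.12% (Vhl). Levels are CPM, counts relative to library sizes scaled by TMM, and a gene was called at an edgeR adjusted p under 0.05. Kmt2d itself had 79.7, 87.6 and 101 CPM in the wild-type libraries against 73.0, 69.3 and 79.8 CPM in the others, an overlap between the groups, and was called lower (log2 fold change -0.27, SE 0.08, adjusted p = 0.0075). Without KMT2D KO replicate 2 it was not called (-0.21, adjusted p = 0.058, against 0.00057 to 0.058 over the alternatives). Being a count over the whole gene, it cannot tell if the floxed exons are gone. Of 12 melanocyte markers, 10 had under 1 CPM in both groups, and Tyr, Tyrp1 and Dct, which encode the pigment enzymes, had group means of at most 0.0765 CPM. Mitf, the melanocyte transcription factor gene, was present and rose from 15.4 to 53.2 CPM (1.79, adjusted p = 2.8e-11). The melanocyte list summed to between 16.0 and 17.9 CPM in the wild-type libraries and between 50.6 and 59.3 CPM in the others. Of its 4 tested genes, 2 were higher (Mitf and the scarce Mlana) and 0 lower. The fibroblast list, with collagen genes, was abundant and had sums of 5807 to 6021 CPM in wild-type libraries and 21595 to 22616 CPM in KMT2D KO. Most of the sum came from Col1a1 (1283.5 and 3314 CPM), Col1a2 (2808 and 9385 CPM) and Col3a1 (836 and 7661 CPM). Of its 10 genes, 7 were higher and 3 lower. The lower ones were Dpt (44.8 and 0.839 CPM), Thy1 (14.8 and 4.87 CPM) and Lum (1.30 and 0.527 CPM). The labels' extraction protocol names cerebellum, and 11 of 13 cerebellar markers had under 1 CPM in both groups. The 3 that were tested, Cbln3 (0.279 and 2.35 CPM), Slc17a7 (0.0418 and 0.511 CPM) and Mbp (0.901 and 2.54 CPM), were all higher in KMT2D KO. What part these marker differences have in the results below was not tested.

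All 8 genes differed between the groups, 6 higher and 2 lower in KMT2D KO. This count has to be read against a comparison in which 71.0% of all 14579 tested genes were called, 35.4% higher and 35.5% lower. Both alpha subunits, Arnt, Egln1 and Vhl rose by 1.6-fold to 2.94-fold, Egln3 was 2.03-fold lower, and Egln2 and Hif1an changed little (0.878 and 1.18 times KMT2D WT). In each of the 8 genes the 3 libraries of one group lay entirely above those of the other, as they did in 74.3% of tested genes.

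**Figure D1:**
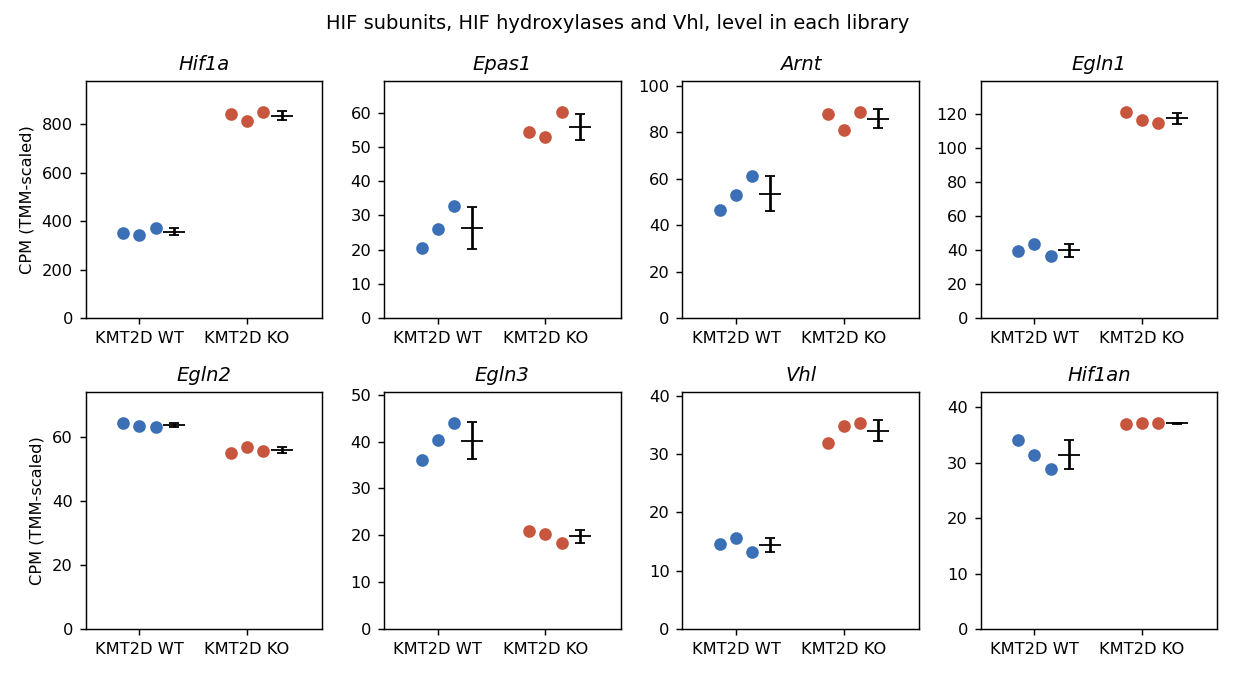
CPM of each of the 8 genes (vertical axes start at 0) in the 3 KMT2D WT libraries (blue) and the 3 KMT2D KO libraries (red), with the mean and SD in black. Hif1a, Epas1, Arnt, Egln1 and Vhl stand higher in every KMT2D KO library, Egln3 stands lower, and Egln2 and Hif1an differ little.

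The alpha subunits rose in parallel. Hif1a, the widely expressed subunit that drives glycolytic genes (mm9 chromosome 12, 75008854 to 75048517, plus strand), had 352, 344 and 373 CPM in KMT2D WT replicates 1 to 3. In KMT2D KO it had 842, 814 and 850 CPM, so its lowest value there was above every wild-type value. Group means of 356 ± 15 and 835 ± 19.1 CPM (SD, n = 3) gave a 2.34-fold rise, or 1.23 in log2 units (SE 0.05, adjusted p = 1.5e-11). Epas1, which encodes HIF-2 alpha and is best known from endothelium, kidney and neural crest tumours (chromosome 17, 87153204 to 87232750, plus strand), was scarcer. It had 20.5, 26.1 and 32.6 CPM in the wild-type libraries and 54.4, 52.9 and 60.2 CPM in the KMT2D KO libraries. Its spread in KMT2D WT was the widest of the 8 genes, with a coefficient of variation of 23.1% against 6.88% in KMT2D KO, and the groups still did not overlap. The log2 fold change was 1.08 (SE 0.12, adjusted p = 1.5e-06).

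Endothelial markers were mostly near 0 and went both ways. Of 14 in the list, 6 were tested, and 1 (Egfl7) was higher, 2 (Flt1 and Pecam1) lower and 3 not called. Of the 14, 12 had under 1 CPM in both groups, among them Cdh5, Kdr, Tek and Cldn5. The sum over all 14 was 22.8 to 26.9 CPM in KMT2D WT and 10.8 to 11.7 CPM in KMT2D KO, and most of it came from the VEGF receptor gene Flt1 (17.9 and 0.864 CPM) and from Egfl7 (3.69 and 8.95 CPM).

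The balance of the alpha subunits was taken from counts per kb of exon, within each library, so that scaling does not enter. Hif1a exceeded Epas1 by 19.4, 14.8 and 12.8 times in the wild-type libraries and by 17.4, 17.3 and 15.9 times in KMT2D KO. These ranges overlapped, and the log2 ratio differed by 0.12 (two-sided exact permutation p = 0.60, adjusted p = 0.60 over 5 ratios). Without KMT2D WT replicate 3 the difference was -0.01, so its sign rests on that library. Epas1 made up 6.16% ± 1.17 of the alpha-subunit transcripts per kb in KMT2D WT and 5.61% ± 0.273 in KMT2D KO (SD, n = 3).

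Arnt, the shared partner also called HIF-1 beta (chromosome 3, 95238312 to 95301161, plus strand), rose less than the alpha subunits. It had 46.6, 53.0 and 61.4 CPM in KMT2D WT and 87.8, 81.2 and 88.8 CPM in KMT2D KO, a log2 difference of 0.68 (SE 0.08, adjusted p = 3.7e-06). The summed alpha subunits per kb exceeded Arnt by 7.30, 6.35 and 6.01 times in the wild-type libraries and by 9.31, 9.73 and 9.34 times in KMT2D KO. These did not overlap, and the log2 ratio was 0.53 higher in KMT2D KO (exact permutation p = 0.10, the smallest that 3 against 3 libraries allow, adjusted p = 0.125). The related partner gene Arnt2 rose as well, from 62.0 to 112 CPM (log2 fold change 0.85). Hif3a, the third alpha subunit gene, was nearly silent: it had 14 counts in KMT2D WT replicate 3, 3 in KMT2D KO replicate 1 and 0 in the other libraries, and it was not tested.

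The prolyl hydroxylases changed their make-up. Egln1, or PHD2, the main hydroxylase of HIF-1 alpha under normal oxygen (chromosome 8, 127432487 to 127473154, minus strand), showed the largest change of the 8 genes. It had 39.7, 43.8 and 36.3 CPM in KMT2D WT and 121, 116 and 115 CPM in KMT2D KO, a 2.94-fold rise (log2 fold change 1.55, SE 0.07, adjusted p = 3.4e-11). Egln3, or PHD3, the paralogue usually most inducible by hypoxia (chromosome 12, 55279968 to 55304861, minus strand), moved the other way. It had 36.2, 40.3 and 44.1 CPM in the wild-type libraries and 20.8, 20.3 and 18.3 CPM in KMT2D KO, which was 2.03-fold lower (log2 fold change -1.02, SE 0.09, adjusted p = 6.2e-08). Egln2, or PHD1 (chromosome 7, 27943677 to 27951821, minus strand), had 64.4, 63.4 and 63.0 CPM in KMT2D WT and 55.0, 56.9 and 55.7 CPM in KMT2D KO. The difference was small but larger than the spread (log2 fold change -0.19, SE 0.06, adjusted p = 0.0071). Without KMT2D KO replicate 1, Egln2 was no longer called (-0.17, adjusted p = 0.06, against 0.00022 to 0.06 over the alternatives).

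Per kb of exon, Egln1 made up 20.3%, 21.6% and 18.2% of the transcripts of the 3 prolyl hydroxylases in KMT2D WT, and 50.4%, 48.9% and 49.4% in KMT2D KO. The share of Egln2 went from 53.4% ± 1.6 to 39.5% ± 1.06, and that of Egln3 from 26.5% ± 2.33 to 11.0% ± 0.545 (SD, n = 3). Egln2 was thus the most abundant of the 3 in every wild-type library and Egln1 in every KMT2D KO library. The ratio of Egln3 to Egln1 was 1.20, 1.21 and 1.6 in KMT2D WT and 0.226, 0.230 and 0.210 in KMT2D KO, a log2 difference of -2.58. The ratio of Egln2 to Egln1 was 2.72, 2.42 and 2.90 against 0.759, 0.817 and 0.813, a log2 difference of -1.75. In both ratios the groups did not overlap (exact permutation p = 0.10 each, the smallest possible, adjusted p = 0.125).

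**Figure D2:**
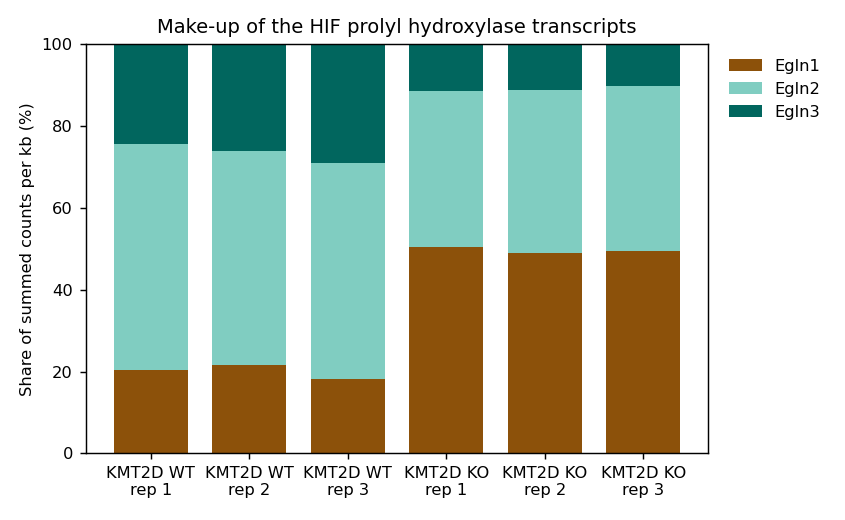
Share of each prolyl hydroxylase gene in their summed counts per kb of exon (percent), one bar per library. Egln1 takes 18.2% to 21.6% in the KMT2D WT libraries and 48.9% to 50.4% in the KMT2D KO libraries, while the shares of Egln2 and Egln3 are smaller in KMT2D KO.

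The sum of the 3 prolyl hydroxylases changed far less than its make-up. It was 56.5 ± 1.14 CPM per kb in KMT2D WT and 67.2 ± 1.31 in KMT2D KO (SD, n = 3), 1.19 times as much, with groups that did not overlap. In TPM, a per-length scaling chosen after the data were seen, the sums were 146 ± 4.34 and 151 ± 4.57, the factor was 1.03 and the groups overlapped. Hif1a and Epas1 together went from 79.8 ± 4.04 to 186 ± 4.61 CPM per kb, 2.33 times as much. Within a library, hydroxylase transcripts amounted to 0.711, 0.747 and 0.672 times the alpha-subunit transcripts in KMT2D WT and to 0.365, 0.374 and 0.346 times in KMT2D KO. This ratio does not depend on scaling, and its log2 value was 0.97 units lower in KMT2D KO, written as -0.97 (exact permutation p = 0.10, the smallest possible, adjusted p = 0.125).

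Hypoxia response elements hold the core letters ACGTG or GCGTG, and the windows before the starts of Egln1 and Egln3 are shown because these HIF-inducible paralogues moved in opposite directions. Each window is the 250 bases before the annotated start on the gene's own strand, taken from RefSeq in build GRCm38.p6, which is not the build of the counts. The first 30 bases after the start occurred in 1 GENCODE transcript of Egln1 but in 0 of Egln3 and 0 of Hif1a. The starts used for Egln3 and Hif1a are therefore less certain. Capitals mark a core match on either strand. The Egln1 window is chr8:124949255-124949504 and the Egln3 window chr12:54203875-54204124, both on the minus strand.

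Egln1: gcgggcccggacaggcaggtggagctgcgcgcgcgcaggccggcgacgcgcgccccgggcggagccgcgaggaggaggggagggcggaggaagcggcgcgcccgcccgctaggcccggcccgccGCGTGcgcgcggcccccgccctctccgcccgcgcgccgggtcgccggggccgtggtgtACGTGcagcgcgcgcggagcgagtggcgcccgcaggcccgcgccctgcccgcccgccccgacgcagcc

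Egln3: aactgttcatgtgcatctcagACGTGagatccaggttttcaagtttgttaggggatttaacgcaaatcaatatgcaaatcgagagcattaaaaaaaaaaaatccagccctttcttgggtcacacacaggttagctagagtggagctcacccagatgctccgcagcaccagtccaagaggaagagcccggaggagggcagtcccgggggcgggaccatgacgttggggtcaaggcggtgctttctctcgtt

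The Egln1 window held 2 matches, a GCGTG that begins 126 bases and an ACGTG that begins 68 bases before the start. The Egln3 window held 1 match, an ACGTG that begins 229 bases before the start. The windows also differed in composition, with 51 CpG dinucleotides and 86.0% G and C in Egln1 against 10 and 50.8% in Egln3. Of the 8 genes, 7 were in the promoter table with 8 start sites, and 6 of these windows held a match. Hif1a had 3 matches, of which a pair overlaps in opposite orientations, and Arnt had 1. Egln2, which was called lower, had windows with 1 and 4 matches, the latter the most of any window of these genes. The windows of Vhl and Hif1an held none, and both of these genes were called higher. Of all 32851 windows of this length, 38.6% held at least 1 match and 16.7% held 2 or more. A match is a description of the letters and does not show that HIF binds there. Bases outside the windows were not searched, so elements elsewhere in or near these genes are not covered.

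Vhl, the subunit that recognises hydroxylated alpha subunits (chromosome 6, 113574015 to 113581627, plus strand), had 14.6, 15.6 and 13.2 CPM in KMT2D WT. It had 32, 34.8 and 35.4 CPM in KMT2D KO and its groups did not overlap. This was a 2.35-fold rise (log2 fold change 1.23, SE 0.09, adjusted p = 5.8e-09).

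The other subunits of the ligase did not rise with it. Cul2, the scaffold, went from 61.1 ± 3.89 to 38.9 ± 1.51 CPM (SD, n = 3; log2 fold change -0.65, adjusted p = 4.8e-07). Rbx1, the RING subunit that recruits the ubiquitin-conjugating enzyme, fell from 80.7 to 61.7 CPM (-0.39, adjusted p = 0.00011). Tceb1, which encodes elongin C, fell from 41.6 to 31.0 CPM (-0.43, adjusted p = 0.00099). Tceb2, which encodes elongin B, had 148, 160 and 129 CPM in KMT2D WT and 129, 134 and 110 CPM in KMT2D KO. It was called lower (-0.22, adjusted p = 0.024), but the groups overlapped. The call was lost without KMT2D WT replicate 1 (-0.21, adjusted p = 0.062), KMT2D WT replicate 2 (-0.15, 0.16) or KMT2D KO replicate 3 (-0.14, 0.17), where all alternatives gave 0.00084 to 0.17. Per kb of exon, Vhl amounted to 0.340, 0.412 and 0.333 times Cul2 in the wild-type libraries and to 1.22, 1.43 and 1.36 times Cul2 in KMT2D KO. Against Tceb1, Tceb2 and Rbx1 the same ratio was 2.78 to 3.20 times as high in KMT2D KO, with no overlap between the groups. These ratios were chosen after the values were seen and were not tested.

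**Figure D3:**
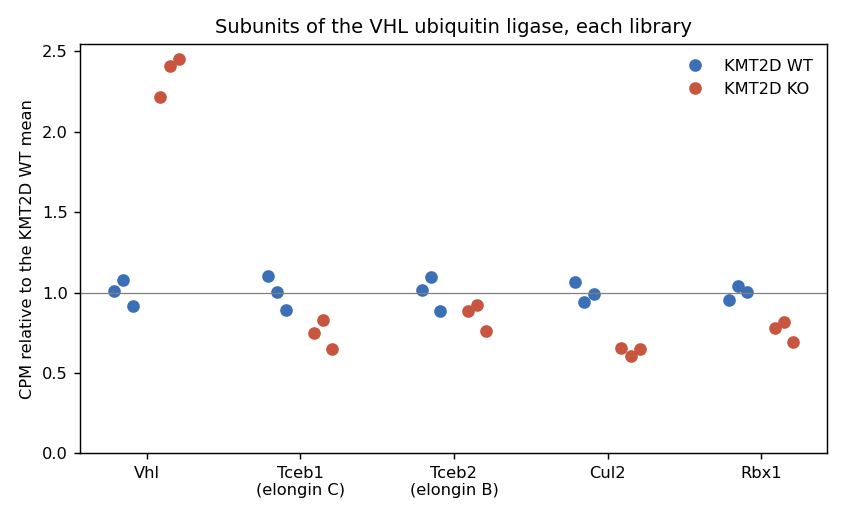
CPM of Vhl and of the other 4 ligase subunits in each library, divided by the gene's KMT2D WT mean (vertical axis from 0, grey line at 1). The KMT2D KO libraries (red) lie above 2 for Vhl and below 1 for Tceb1, Tceb2, Cul2 and Rbx1, with Tceb2 overlapping the KMT2D WT libraries (blue).

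In the whole list of 21 genes for the VHL ligase and HIF turnover, 8 were higher, 12 lower and 1 was not called (35.4% and 35.5% of all tested genes were higher and lower), with a median log2 fold change of -0.20 beside 0.00 for all tested genes. With library size as the sole scaling, 4 were higher. The chaperone gene Hsp90aa1, whose product holds unhydroxylated HIF-1 alpha, fell from 1088 to 493 CPM (-1.14). Wsb1, an adaptor gene linked to turnover of the Vhl protein, rose from 54.4 to 104 CPM (0.94). Gnb2l1, which encodes Rack1, a factor in oxygen-independent turnover of HIF-1 alpha, rose from 420 to 694 CPM (0.72). The annotation holds a pseudogene of Rbx1, so its count is uncertain.

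Hif1an, or FIH, hydroxylates an asparagine of the alpha subunit and so hinders its binding to the coactivators p300 and CBP (chromosome 19, 44637344 to 44650764, plus strand). It had 34.1, 31.4 and 28.9 CPM in KMT2D WT and 37.0, 37.2 and 37.1 CPM in KMT2D KO, close to each other but not overlapping. The log2 fold change was 0.24 (SE 0.07, adjusted p = 0.0099). Scaled by library size alone it was 0.13 and not called (adjusted p = 0.14, against 0.0024 to 0.14 over the alternatives).

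Order of abundance per kb was compared within each group. In KMT2D WT, Hif1a led with 74.8 CPM per kb, followed by Egln2 with 30.2, and neither overlapped its neighbours. Egln3 (15), Arnt (12.3) and Egln1 (11.3) overlapped in sequence, as did Vhl (5.29), Hif1an (5.08) and Epas1 (4.93), so their order is not resolved. In KMT2D KO, no neighbours overlapped: Hif1a (175) was followed by Egln1 (33.3), Egln2 (26.5), Arnt (19.7), Vhl (12.5), Epas1 (10.4), Egln3 (7.40) and Hif1an (5.99). By group means, Egln3 stood at place 3 of 8 in KMT2D WT, where it overlapped Arnt, and at place 7 in KMT2D KO. Among all tested genes, Hif1a lay at percentile 94.2 of level per kb in KMT2D WT and 97.7 in KMT2D KO, and Egln1 at 63.5 and 85.7.

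Median differences varied between chromosomes, so each gene was set beside its surroundings. On chromosome 6 the median over tested genes was 0.42 in log2 units, and the 20 nearest to Vhl had 0.29, both under the 1.23 of Vhl. Hif1a and Egln3 lie on the same chromosome, whose median was -0.14, and their nearest genes had medians of 0.22 and -0.13. The nearest genes of Epas1 had a median of -0.43 with 13 of 20 called lower, and those of Arnt -0.30 with 10 of 20 lower, while both genes rose. Around Egln1 the median was 0.31 and around Egln2 0.20. Hif1an was the one gene of the 8 close to its surroundings, with 0.24 beside 0.19 for its nearest genes and 0.17 for chromosome 19. Measured from the chromosome's median, the differences kept their signs in all 8 genes and ranged from -0.88 (Egln3) to 1.37 (Hif1a).

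**Figure D4:**
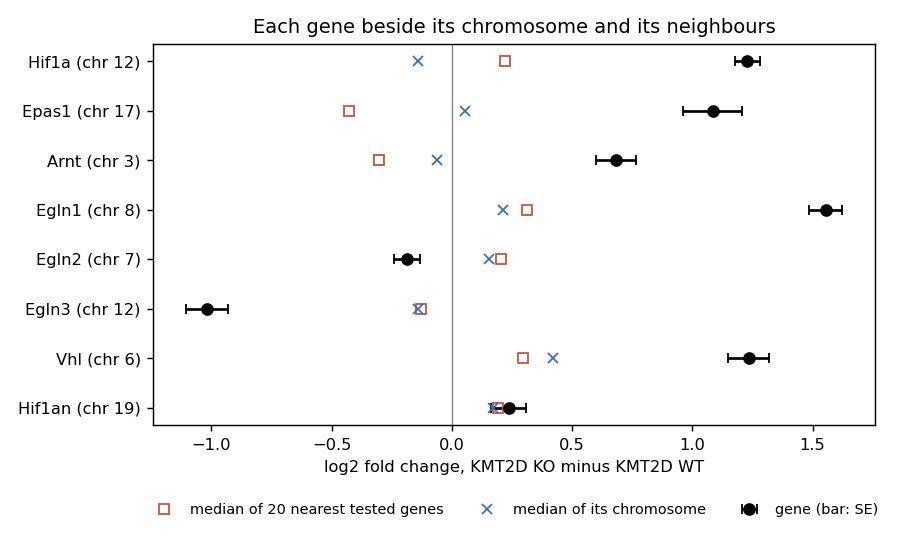
Log2 fold change (KMT2D KO minus KMT2D WT) of each of the 8 genes with its SE (black), beside the median of the 20 nearest tested genes (open squares) and of all tested genes on the chromosome (crosses). Hif1an (0.24) lies next to its chromosome's median (0.17), and the other genes lie further away.

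Genes switched on by HIF were mostly higher. The list of 43 targets was drawn from textbook knowledge, but with earlier results of these data known. Of these targets, 42 were tested, and 35 were higher, 4 lower and 3 not called, with a median log2 fold change of 1.12. Over all tested genes 35.4% were higher and 35.5% lower. Epo, the kidney and liver target, had 0 counts in all 6 libraries. Divided by function after the values were seen, 16 of 19 genes of glucose handling were higher and 1 lower, and 19 of 23 other targets were higher and 3 lower. Pdk1, the kinase that shuts pyruvate dehydrogenase, had 18.1, 17.6 and 16.7 CPM in KMT2D WT and 150, 149 and 156 CPM in KMT2D KO, a log2 difference of 3.12 (SE 0.06, adjusted p = 3.2e-15). The lactate exporter gene Slc16a3 rose from 12.6 to 134 CPM (3.40), Aldoc from 0.451 to 17.8 CPM (5.26) and the mitophagy gene Bnip3 from 62.3 to 355 CPM (2.51). Slc2a1, the glucose transporter gene, rose from 106 to 328 CPM (1.63). Car9, the tumour hypoxia marker that encodes a surface carbonic anhydrase, stayed scarce at 1.62 ± 0.534 and 3.53 ± 0.241 CPM (SD, n = 3; 1.14, adjusted p = 0.00043).

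Some classical targets went against this direction. Vegfa, the vessel growth factor gene, had 564, 548 and 562 CPM in KMT2D WT and 369, 354 and 369 CPM in KMT2D KO, a log2 difference of -0.62 (SE 0.05, adjusted p = 2.3e-08). No KMT2D KO library came near the wild-type values. The endoplasmic reticulum oxidase gene Ero1l went from 258 to 129 CPM (-0.99), Pfkfb4 from 7.41 to 4.03 CPM (-0.88) and, named here as the last of the 4 lower targets, the transferrin receptor gene Tfrc from 93.2 to 61.6 CPM (-0.60). Egln3, which is not in this list, fell with them, while Egln1 rose with the majority. Counts of Eno1 (0.514 and 1.43 CPM), which has a close copy in Eno1b, and of Gapdh, which has pseudogenes, are uncertain.

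Other enzymes that use oxygen and 2-oxoglutarate, the chemistry of the Egln proteins, were also mostly higher. Of 30 tested, 25 were higher, 2 lower and 3 not called (35.4% and 35.5% of all tested genes were higher and lower), with a median of 0.65, and 4 of them (P4ha1, P4ha2, Plod2 and Kdm3a) are in the target list too. P4htm, a membrane-bound prolyl hydroxylase gene, rose from 0.298 to 4.54 CPM (3.84, or 4.70 without KMT2D WT replicate 2, on wild-type counts of 14, 35 and 4), and the DNA demethylase gene Tet3 from 26.9 to 88.9 CPM (1.73). The 2 genes called lower, Asph (-0.18, adjusted p = 0.011) and Plod3 (-0.15, adjusted p = 0.021), were not called without KMT2D KO replicate 1 (-0.17 and -0.12, adjusted p = 0.051 and 0.13) or without KMT2D KO replicate 2 (-0.14 and -0.13, adjusted p = 0.089 and 0.10). Plod3 was also not called without KMT2D WT replicate 2 (-0.12, adjusted p = 0.069) or with no filter on low counts (-0.12, adjusted p = 0.099). Over all alternatives the adjusted p was 0.00026 to 0.089 for Asph and 0.00046 to 0.13 for Plod3.

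Genes that set the pools of 2-oxoglutarate, succinate and fumarate, a cofactor and the inhibitors of the Egln enzymes, went both ways. Of 24, 6 were higher, 12 lower and 6 not called, with a median of -0.18 and 18 called in all, near the background of 71.0%. D2hgdh, which clears the D form of 2-hydroxyglutarate, rose from 3.76 to 19.8 CPM (2.39), and Idh2, which makes 2-oxoglutarate from isocitrate, from 43.8 to 183 CPM (2.07). Got1, a transaminase gene, fell from 68.1 to 36.1 CPM (-0.92). The ascorbate transporter gene Slc23a1 was scarce (1.5 and 0.765 CPM, -0.96, adjusted p = 0.022) and was not called without KMT2D WT replicate 1 (-0.64, adjusted p = 0.15) or KMT2D KO replicate 2 (-0.78, adjusted p = 0.10), where all alternatives gave 0.011 to 0.15.

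**Figure D5:**
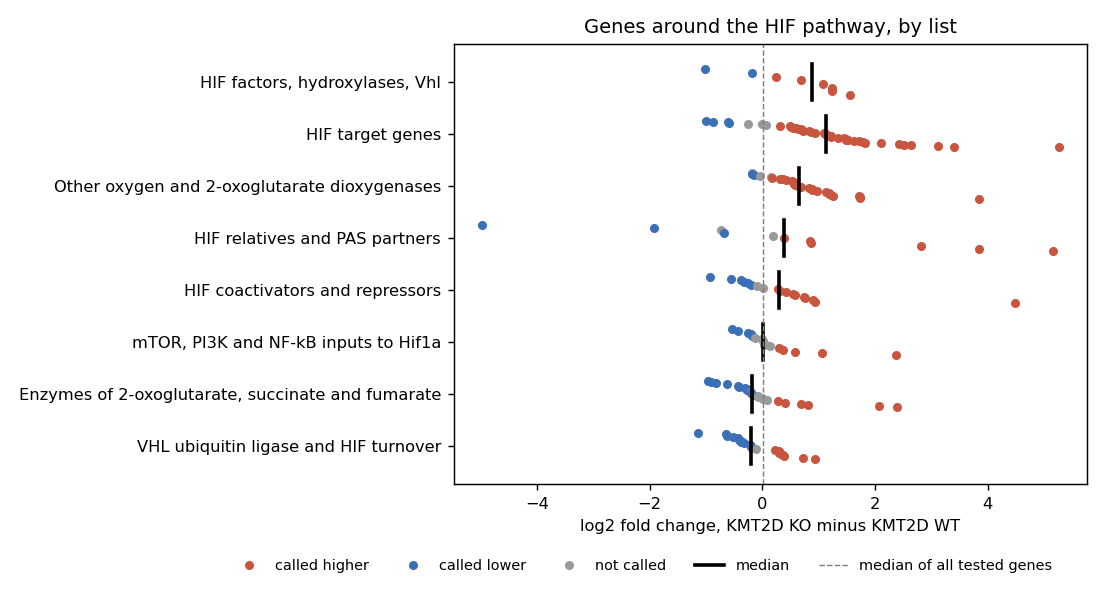
Log2 fold change (KMT2D KO minus KMT2D WT) of each tested gene, by list, coloured by call, with list medians in black and the median of all tested genes (0.00) dashed. The HIF target list (median 1.12) and the other dioxygenases (0.65) lie mostly to the right, and the list for the VHL ligase and HIF turnover (-0.20) lies on both sides.

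Relatives of HIF in the PAS family, which includes circadian and xenobiotic factors, went both ways. Of 11 tested of 13, 6 were higher, 3 lower and 2 not called, with a median of 0.38, a called share not far from the 71.0% of all tested genes. Npas2 rose from 0.130 to 4.98 CPM (5.15), with 19, 4 and 0 counts in KMT2D WT, so the size is poorly set: it was 6.99 without KMT2D WT replicate 1 and 6.14 with limma voom. Arntl2 rose from 0.487 to 7.23 CPM (3.84). Ahrr, the repressor of the aryl hydrocarbon receptor, fell from 20.4 to 0.648 CPM (-4.97), and Sim2 from 3.13 to 0.819 CPM (-1.92).

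Coactivators and repressors of HIF were split, with 10 of 18 higher, 6 lower and 2 without a call (median 0.29), beside 35.4% higher and 35.5% lower of all tested genes. Ncoa2 rose from 63.3 to 118 CPM (0.90) and Mxi1, a repressor of MYC targets that is also in the target list, from 43.4 to 83.2 CPM (0.94). Cdk8, a kinase of the Mediator complex, fell from 52.3 to 27.6 CPM (-0.92) and the deacetylase gene Hdac3 from 70.7 to 48.1 CPM (-0.56).

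Inputs that raise Hif1a transcription or translation through mTOR, PI3K and NF-kB had 5 genes higher, 5 lower and 6 not called of 16, with a median of 0.02, beside 35.4% higher and 35.5% lower of all tested genes. Stat3 rose from 173 to 358 CPM (1.05). Rheb, the activator of mTOR complex 1, fell from 60.5 to 41.8 CPM (-0.53) and Akt1 from 301 to 222 CPM (-0.44). The count of genes called lower in this list was 3 without KMT2D KO replicate 1.

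The genes most like Egln1 and Vhl, the 2 genes of the 8 with the largest changes, were sought by the correlation of log2 CPM over the 6 libraries. Csrp1 (r = 0.9996) and Znf512b (r = 0.9996) were closest to Egln1, and Ing1 (r = 0.9998) and Dctn1 (r = 0.9997) to Vhl. With 2 groups the measure mostly reads the step between them: 20.5% of tested genes reached r above 0.95 with Egln1 and 20.1% with Vhl, and likeness says nothing of shared control.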

How the data were processed

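RNA-seq libraries of cultured tumour cells, 3 per group, were used. The deposited values are whole-number counts of fragments per gene, which the authors obtained for exons of mm9 genes using featureCounts 1.5.2, per the file headers; STAR and HTSeq are named without a role in the submitters' processing notes. Per the file headers no strand or multi-mapping option was set. No exon base of the 8 genes is shared with another gene of the annotation (0 genes). Exon lengths, a value of another kind, are those deposited.

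Counts were tested with edgeR 4.0.16 (R 4.3.3) by the quasi-likelihood F test, with TMM scaling, filterByExpr by group, a group-only model and Benjamini-Hochberg adjustment over 14579 genes. SE is the log2 fold change divided by the square root of F. The code was tested on simulated data, where edgeR recovered 68 of 100 genes changed by 0.5 log2 units and 82 of 100 changed by 1. Far fewer genes changed there than were called in these data, so scaling under so broad a difference was not tested. Ratios within a library used counts per kb and two-sided exact permutation tests. Alternatives were RLE, library size, DESeq2 1.42.0, limma voom 3.58.1, no filter, a mean of 1 CPM, robust fitting, the replicate number as a block, centring by chromosome and leaving out each library.

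Members and lists were chosen with earlier results of these data known. From each pathway list the text names up to 2 called genes higher and 2 lower with the largest changes (1 CPM or more on average in whichever group is higher), besides the 8 genes, Kmt2d, Hif3a, Arnt2, the ligase subunits, 5 HIF targets and the genes most alike. Tfrc, Epo, Eno1, Gapdh and the markers named were chosen after their values were seen. Immune (0 higher, 4 lower of 6 tested) and keratinocyte markers (1 higher, 1 lower of 7 tested) were also counted. 1 gene that this rule would name is not reported here. Symbols follow the files (Tceb1, Tceb2, Gnb2l1, Ero1l).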

Additional observations from a re-analysis of the deposited data

How the results depend on the processing

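Across all alternatives the 8 genes kept their direction. Leaving out each library in turn gave 6 genes higher, and 1 to 2 lower: 1 without KMT2D KO replicate 1, where Egln2 lost its call with 1 sample fewer in the fit. Scaling by library size alone gave 5 higher and moved the all-gene median of log2 differences from 0.00 to -0.11 (4415 higher and 5987 lower, against 5164 and 5181). The difference in the log2 ratio of Hif1a to Epas1 ranged from -0.00776 (without KMT2D WT replicate 3) to 0.29 over the libraries left out; the cause was not tested. Deviations of same-numbered libraries from their group means correlated at only 0.0149, 0.00949 and 0.00846, although each library correlated best with its own number. Whether the replicate numbers pair the libraries was not tested. With the replicate block, 6 of the 8 genes were higher and 2 lower, and 5225 of all genes were higher and 5143 lower. Among the dioxygenases, 0 genes were called lower without KMT2D KO replicate 1 or 2 and 1 with no filter on low counts. With 3 libraries per group, permutation tests of the ratios cannot go below 0.10.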
